A study of Mus musculus with 21 samples.

Results

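Dorsal root ganglia of conditional knockout mice from a CFA model were compared with untreated conditional knockout ganglia, over every gene of the table that holds both. The comparison used 7 of the 21 libraries of the series, 4 labelled CFA and 3 untreated ones whose names end in LDRG, picked by their column names. Of 24524 genes in the table, 16199 had enough counts to be tested. All 7 libraries are labelled as carrying a floxed Tmem45b gene together with Cre recombinase expressed from Mrgprd, and cKO here means libraries with that label. Mrgprd encodes a receptor of nonpeptidergic nociceptors, and which cells of these ganglia recombined was not measured. The floxed stretch of the gene is not named in the labels. The labels write CFA without its long form, which is usually complete Freund's adjuvant. Strain, age, side and time after CFA are left out of the labels. For reference, the same table holds 4 CFA and 3 LDRG libraries of mice with the floxed gene and no Cre (flox). A second table holds untreated libraries, 4 cKO and 3 flox, named con or ko. Each code holds a letter F or M and a letter C or L, which the labels do not explain. The cKO codes are FC, FC, MC and ML, and the flox codes are FC, FL and ML.

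Dorsal root ganglia hold the cell bodies of sensory neurons, each wrapped by satellite glia, with Schwann cells around the axons and a sheath of connective tissue, vessels and macrophages. Peptidergic nociceptors release neuropeptides such as substance P and CGRP, while the nonpeptidergic class that expresses Mrgprd innervates the skin. Complete Freund's adjuvant, injected into a paw or joint, draws neutrophils and macrophages to the tissue and is a standard model of inflammatory pain. RNA was measured from whole ganglia, so that fewer cells of a type and less RNA per cell cannot be told apart.

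Library totals ranged from 62.1 to 71.9 M counts. Replicates of a group differed by more than sampling noise, with a chi-square per degree of freedom of 27.1 to 81.3 over 9 pairs. Separate animals are not named for the libraries, and each p-value therefore covers the variation among these libraries, which may be technical. Principal component 1 (36.2% of the variance) placed the CFA libraries at 10.7 to 18.8 and the LDRG libraries at -26.0 to -12.9. Component 2 (19.6%) set LDRG library 1 (21.1) apart from LDRG libraries 2 (-20.1) and 3 (-10.7). Levels are given as CPM, a gene's counts per M counts of its library after TMM scaling. Skeletal muscle genes summed to 993, 98.2 and 104 CPM in LDRG libraries 1 to 3 and to 137, 99.2, 98.5 and 85.8 CPM in CFA libraries 1 to 4, and LDRG library 1 stood alone.

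Tmem45b, the targeted gene, was examined first because it checks the labels. It measured 108, 105, 67.5 and 61.7 CPM in CFA libraries 1 to 4 and 67.6, 72.1 and 59.9 CPM in LDRG libraries 1 to 3. CFA libraries 1 and 2 lay above every LDRG library, while CFA libraries 3 and 4 lay within the LDRG range. The difference was 0.37 on the log2 scale (SE 0.21, 95% interval -0.11 to 0.84, adjusted p = 0.357 by edgeR's quasi-likelihood test with Benjamini-Hochberg adjustment). The exact two-sided p by permutation was 0.343, and this design can reach no lower than 0.0286. Without CFA libraries 1 and 2 the difference was -0.039. Libraries labelled flox measured 65.8, 116, 135 and 80.1 CPM with CFA and 124, 132 and 145 CPM in LDRG, so that flox CFA libraries 1 and 4 lay below every other flox library of the table. Untreated libraries separated by genotype label, the highest untreated cKO library of either table standing at 89 CPM. The level of Tmem45b in cKO CFA libraries 1 and 2 and flox CFA libraries 1 and 4 thus does not follow the genotype label, and whether these libraries are mislabelled was not tested. Tmem45b (chromosome 9, 31426196 to 31464462, minus strand) is placed on build mm10, as are all genes here. Its level is a gene total, which also counts parts that are not deleted. Mrgprd measured 113, 149, 153 and 168 CPM with CFA and 146, 147 and 153 CPM without, a difference of -0.029 (SE 0.12).

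Sex-linked transcripts followed the groups without exception among the genes named here. Xist, transcribed from the inactive X chromosome, measured 285, 321, 283 and 459 CPM in CFA libraries 1 to 4 and 0.1, 0.198 and 0.198 CPM in LDRG libraries 1 to 3. The Y-linked genes Ddx3y, Kdm5d and Eif2s3y were at 0 counts in the 4 CFA libraries. With a floor of 3 counts summed over the group, they were at least 7450-fold, 2020-fold and 4550-fold lower than in LDRG. Kdm6a, an X-linked gene that escapes inactivation, rose by 0.78 (SE 0.10). Treatment and sex therefore cannot be told apart in this comparison. The ending LDRG, which the labels do not explain, stands only in names of untreated libraries. Whatever it marks cannot be told apart from treatment either. The letters F and M of the con and ko libraries gave a separate measure of sex-linked genes. Between 4 libraries coded F and 3 coded M, edgeR called 6 of 17209 genes (0.0349%). Xist and Eif2s3x were higher with F (0.0116%), and Uty, Ddx3y, Kdm5d and Eif2s3y were lower (0.0232%). DESeq2 called 256, and 1817 genes (10.6%) had an unadjusted p under 0.05. All 6 were also called between CFA and LDRG, in the direction of F. The fit of F against M held the genotype label but not the letter C or L, which is spread unevenly over F and M.

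Over all genes, 325 of 16199 (2.01%) passed an adjusted p of 0.05, 228 of them higher with CFA (1.41%) and 97 lower (0.599%). The rises were larger: their median was 0.89 on the log2 scale and 102 exceeded 2-fold, whereas the median of the falls was -0.36 and 8 exceeded 2-fold. Leaving out chromosomes X and Y, 97 of 212 rises and 3 of 88 falls exceeded 2-fold. The median over all genes tested was -0.0029. An unadjusted p under 0.05 was found for 3322 genes (20.5%), and the values of the groups did not overlap for 3409 genes (21%), 1741 higher with CFA (10.7%) and 1668 lower (10.3%). DESeq2 called 1361 of the 16199 genes, 900 higher and 461 lower. Counts given below for single lists are to be read beside these shares. With 1 library left out, the calls numbered 200, 114, 185 and 330 without CFA libraries 1 to 4, and 67, 83 and 66 without LDRG libraries 1 to 3. Without CFA libraries 1 and 2, 50 genes were called, 42 higher and 8 lower. Of 86 called genes examined one by one, 28 were still called then.

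**Figure D1:**
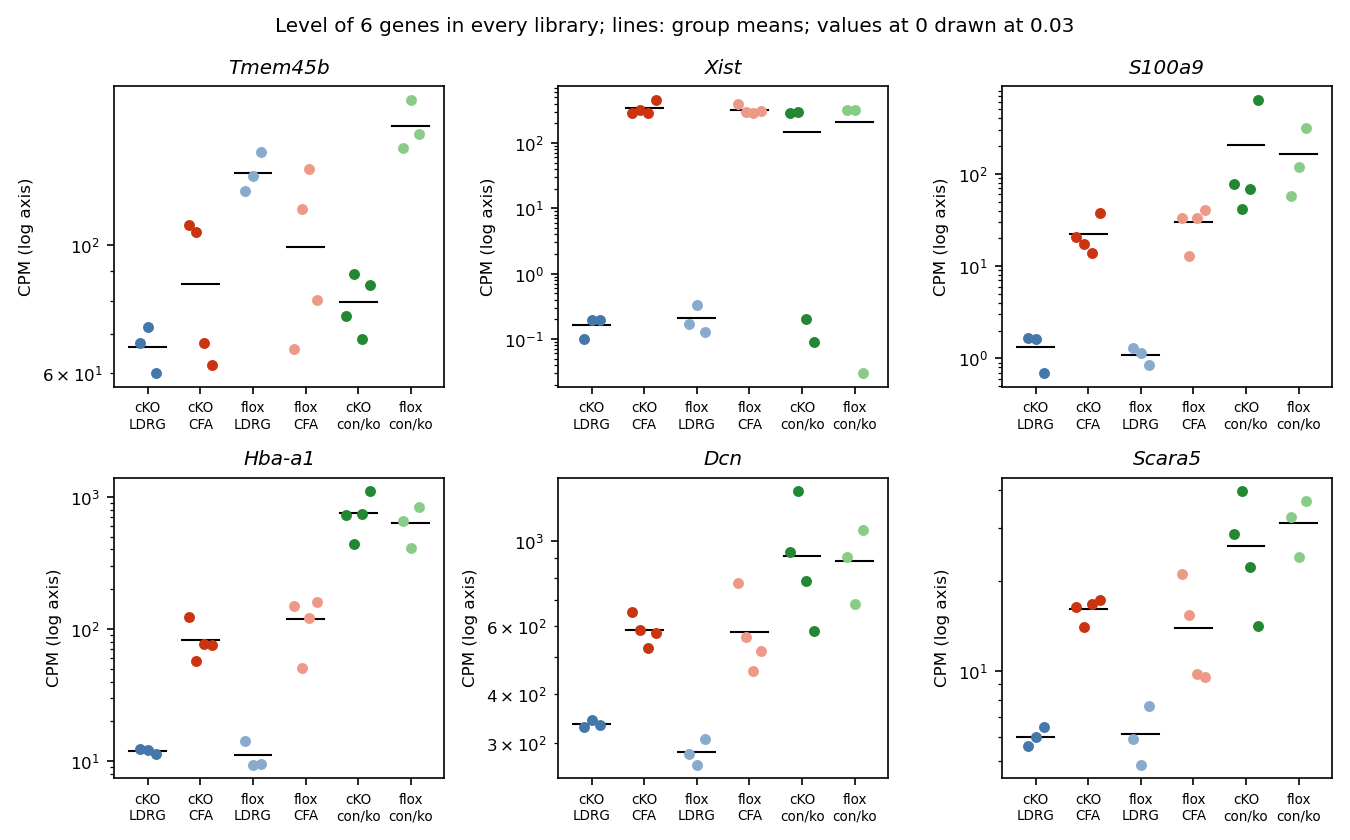
CPM of 6 genes (log axes) in each library of the 6 groups, with a line at each group mean. Xist, S100a9, Hba-a1, Dcn and Scara5 are higher in all 4 cKO CFA libraries than in all 3 cKO LDRG libraries, Tmem45b overlaps, and in S100a9 and Hba-a1 the untreated cKO con/ko libraries lie above the cKO CFA libraries.

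The largest rises belonged to neutrophil genes. Of 18 tested genes of a neutrophil list, 10 rose, 0 fell and 8 did not pass, with a median of 3.5, and 16 had CFA values above all LDRG values. The summed level of the list was 98.9, 66.2, 63.9 and 176 CPM in CFA libraries 1 to 4 and 8.38, 10.4 and 4.9 CPM in LDRG libraries 1 to 3. Every CFA sum lay above every LDRG sum, and CFA library 4 was the highest. Between 3 and 10 genes were called with 1 library left out, 2 without CFA libraries 1 and 2, and 6 without CFA libraries 1 and 4. In the 4 untreated cKO libraries of the other table the sums were 337.6, 177.4, 274.5 and 3235 CPM, the highest being that of the library coded ML. All lay above the CFA libraries, the lowest only just above CFA library 4 at 176.3 CPM.

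S100a9 (chromosome 3, 90692632 to 90695721, minus strand), a subunit of the calcium-binding protein calprotectin that fills neutrophil cytoplasm, measured 20.6, 17.3, 13.7 and 37.7 CPM with CFA and 1.68, 1.63 and 0.693 CPM in LDRG. The groups stood far apart, at 22.3 ± 10.6 (SD, n = 4) and 1.33 ± 0.556 (n = 3), a log2 difference of 4.06 (adjusted p = 0.00794 by edgeR, and 0.0571 without CFA libraries 1 and 2). The granule protein gene Ngp measured 16.3, 10.3, 10.4 and 31.2 CPM against 1.03, 2.1 and 0.693 CPM and rose by 3.73 (SE 0.55), with CFA library 4 again the highest. The collagenase gene Mmp8 rose by 4.61 (SE 0.42), the gelatinase gene Mmp9 by 3.05 (SE 0.36), and Cxcr2, a receptor that guides neutrophils to CXC chemokines, by 3.77 (SE 0.46). Smaller rises were those of Chil3, a chitinase-like secreted protein, at 2.85 (SE 0.54), Lcn2, an iron-binding granule and acute phase protein, at 2.43 (SE 0.43), and Csf3r, the G-CSF receptor, at 1.68 (SE 0.30). Retnlg measured 5.73, 2.97, 3.92 and 5.24 CPM with CFA and was at 0 counts in LDRG, at least 299-fold higher by the same floor. Ly6g, the surface marker by which mouse neutrophils are sorted, was likewise at 0 in LDRG and at least 25-fold higher with CFA. S100a8, the partner of S100a9, was at 5.11 (SE 1.2, adjusted p = 0.0752) and the antimicrobial peptide gene Camp at 3.27 (SE 0.85, adjusted p = 0.0946), and neither passed.

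Upstream sequence of 4 of these genes is shown because they belong to the list with the highest median and hold letters of the C/EBP motif, whose factors drive granule genes during neutrophil maturation. The stretches are from RefSeq (build GRCm38.p6), written 5′ to 3′ on the strand of the gene, with the match to TTGCNNAA in capitals. The search covered both strands of the 250 bases before each annotated start. Starts are those of RefSeq, and the Lcn2 stretch lies within the gene span given by GENCODE, the source of gene positions here.
S100a9 (chr3:90695912-90695971, minus strand): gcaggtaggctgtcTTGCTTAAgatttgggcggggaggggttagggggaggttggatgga
Ngp (chr9:110419644-110419703, plus strand): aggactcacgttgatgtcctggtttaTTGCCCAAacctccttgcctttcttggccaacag
Mmp8 (chr9:7558369-7558428, plus strand): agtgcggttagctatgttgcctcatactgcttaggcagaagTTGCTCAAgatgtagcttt
Lcn2 (chr2:32387922-32387981, minus strand): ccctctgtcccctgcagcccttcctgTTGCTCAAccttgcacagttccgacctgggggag
Of the 18 neutrophil genes with a sequence, 7 held TTGCNNAA (38.9%), as did 3142 of 32851 RefSeq promoters (9.56%). S100a8 and Camp above were not called although they belong to the same list. A match of letters is a description of the sequence and was not tested as a binding site.

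Genes of red blood cells formed the second group with large rises. Of 12 tested genes of the red cell list, 6 rose and 0 fell, the median was 2.67, and 8 had CFA values above all LDRG values. Summed levels were 560.4, 314, 363 and 387 CPM in CFA libraries 1 to 4 and 155, 148 and 145 CPM in LDRG libraries 1 to 3, with CFA library 1 the highest. Hba-a1 (chromosome 11, 32283511 to 32284465, plus strand), an adult alpha-globin gene, measured 122, 56.8, 76.4 and 75.6 CPM with CFA against 12.3, 12 and 11.2 CPM. The LDRG libraries were nearly equal, every CFA library was higher, and the gene rose by 2.8 (SE 0.25, adjusted p = 0.00351 by edgeR). The second alpha-globin gene Hba-a2 rose by 2.7 (SE 0.25), and the beta-globin genes Hbb-bs and Hbb-bt by 2.74 (SE 0.27) and 2.73 (SE 0.28). Alas2, the first enzyme of haem synthesis in erythroid cells, rose by 2.99 (SE 0.33) and Slc4a1, the anion exchanger of the red cell membrane, by 3.19 (SE 0.43). Between 5 and 6 of the list were called with 1 library left out, and 5 without CFA libraries 1 and 2. In the 4 untreated cKO libraries of the other table the red cell sum was 1913 to 4681 CPM.

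The globin promoters are shown because alpha- and beta-globin genes on 2 chromosomes moved by similar amounts. The 110 bases before each annotated start are given from RefSeq (build GRCm38.p6), with CCAAT and CACCC on either strand in capitals. RefSeq starts can differ from the GENCODE gene positions used elsewhere. The stretches of Hba-a1 and Hbb-bs lie within the GENCODE spans of these genes.
Hba-a1 (chr11:32283562-32283671, plus strand): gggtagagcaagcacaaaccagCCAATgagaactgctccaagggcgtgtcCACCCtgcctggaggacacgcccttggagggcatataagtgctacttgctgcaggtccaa
Hbb-bs (chr7:103827929-103828038, minus strand): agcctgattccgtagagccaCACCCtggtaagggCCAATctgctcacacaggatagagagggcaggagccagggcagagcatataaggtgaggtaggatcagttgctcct
Hbb-bt (chr7:103813924-103814033, minus strand): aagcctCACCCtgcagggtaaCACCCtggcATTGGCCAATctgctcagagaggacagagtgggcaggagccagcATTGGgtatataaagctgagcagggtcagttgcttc
Each stretch holds both motifs, and Hbb-bt holds CCAAT on both strands side by side. Among all RefSeq promoters, 33.8% held CCAAT and 52% held CACCC in the 250 bases before the start, against 6 of 8 (75%) red cell genes for either. Hba-a1 and Hba-a2 are both among the 8. The window of Hba-a2 was identical to that of Hba-a1 over 297 of 297 bases when shifted by 3. These are near-identical copies whose reads the counting could divide either way, so the split between them is uncertain. The matched letters were not tested as binding sites, and the cause of the similar rises was not tested.

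Macrophage genes showed smaller rises, and a single lymphocyte gene was called. Of 21 tested macrophage genes, 5 rose and 0 fell, with a median of 0.42. Itgam, the integrin subunit CD11b that neutrophils also carry, measured 4.56, 4.02, 3.71 and 6.15 CPM with CFA and 1.68, 1.63 and 1.81 CPM in LDRG and rose by 1.43 (SE 0.19). F13a1, a transglutaminase of resident macrophages, rose by 0.86 (SE 0.11), the F4/80 gene Adgre1 by 0.78 (SE 0.14), the lysozyme gene Lyz2 by 0.75 (SE 0.12) and Ccr2, the monocyte receptor for CCL2, by 0.66 (SE 0.11). Csf1r, on which macrophages depend for survival, stood at 0.56 (SE 0.15, adjusted p = 0.106) and the fractalkine receptor gene Cx3cr1 at 0.49 (SE 0.13, adjusted p = 0.0996). With 1 library left out, 0 to 4 macrophage genes were called, and 0 without CFA libraries 1 and 2. Of 18 lymphocyte genes, 1 rose, the immunoglobulin kappa constant gene Igkc, from 0.187, 0.156 and 0.066 CPM to 2.3, 0.564, 1.07 and 2.42 CPM. The lymphocyte list leaned upward, with a median of 0.65, 15 of 18 genes above 0 and 4 with CFA values above all LDRG values. Its summed level overlapped, at 49.8 to 61.2 CPM with CFA and 46.1 to 61.5 CPM in LDRG. Among the members below 0, the T cell receptor subunit gene Cd3e stood at -0.30 (SE 0.36). Of 18 proliferation genes, 1 rose, the cell cycle marker Mki67, by 0.86 (SE 0.15).

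A broader pattern of smaller rises lay in connective tissue. Of 30 tested fibroblast and matrix genes, 14 rose and 0 fell, with a median of 0.53. Dcn (chromosome 10, 97479609 to 97518143, plus strand), the collagen-binding proteoglycan decorin, measured 653, 586, 527 and 577 CPM with CFA and 329.7, 344 and 333 CPM in LDRG. The LDRG values lay close together, every CFA library was higher, and the gene rose by 0.80 (SE 0.071, adjusted p = 0.00351 by edgeR). Fibronectin (Fn1) rose by 1.33 (SE 0.16), the fibrillar collagen genes Col3a1 and Col1a1 by 1.08 (SE 0.16) and 0.84 (SE 0.12), and Col6a1, a chain of microfibrillar collagen, by 0.98 (SE 0.12). Pdgfra, the PDGF receptor of fibroblasts, measured 24.5, 22.8, 22.2 and 23.2 CPM against 12.3, 11.3 and 10.9 CPM and rose by 1.01 (SE 0.074). With 1 library left out, 4 to 17 of the list were called, and 6 without CFA libraries 1 and 2.

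Several of the largest rises are genes of the nerve sheath and its coverings. A pair of lists was added for them after the values were seen, so these counts are a description. Of 20 genes of epineurial and adventitial fibroblasts, 13 rose, with a median of 1.32. The ferritin receptor gene Scara5 measured 16.4, 14, 16.6 and 17.3 CPM with CFA against 5.6, 6 and 6.46 CPM and rose by 1.42 (SE 0.10, adjusted p = 0.00137 by edgeR). Its spread within each group was small, and without CFA libraries 1 and 2 it stood at 1.5 (adjusted p = 0.00839 by edgeR). Pi16, a peptidase inhibitor that marks adventitial fibroblasts, rose by 1.78 (SE 0.19), and Sfrp4, a secreted Wnt antagonist, by 2.01 (SE 0.29). The matrix protein genes Aspn, Svep1 and Ecm2 rose by 1.68 (SE 0.17), 1.62 (SE 0.23) and 1.2 (SE 0.087). Of this list, 7 to 13 genes were called with 1 library left out and 7 without CFA libraries 1 and 2, when Svep1 (adjusted p = 0.0636) and Prrx1 (0.0506) did not pass. The homeobox gene Prrx1 rose by 1.41 (SE 0.14), the leptin receptor gene Lepr by 1.51 (SE 0.13) and the EGF receptor gene Egfr by 1.18 (SE 0.10). Of 24 genes of meninges and perineurium, 10 rose, with a median of 1.16, but 4 to 9 were called with 1 library left out and 2 without CFA libraries 1 and 2. The tight junction gene Cldn1 rose from 17, 17.4 and 18 CPM to 50.6, 37.5, 34.7 and 40.4 CPM, by 1.23 (SE 0.12), and Cldn11 by 1.26 (SE 0.15). The transcription factor genes Foxc1, Foxd1 and Zic1 rose by 1.16 (SE 0.13), 1.75 (SE 0.17) and 1.33 (SE 0.20), and the transporter gene Slc47a1 by 1.38 (SE 0.23). Without CFA libraries 1 and 2, Cldn11, Foxc1, Zic1 and Slc47a1 had adjusted p-values of 0.0894, 0.0652, 0.0894 and 0.0652. Adipocyte genes, of tissue that surrounds nerves, summed to 52.7, 27.9, 105 and 23.6 CPM in CFA libraries 1 to 4 and 37.8, 19.9 and 21.9 CPM in LDRG libraries 1 to 3. Of 9 adipocyte genes 0 passed, Cfd standing at 6.75 (SE 1.78) and Fabp4 at 3.39 (SE 0.96), while 7 had an unadjusted p under 0.05 and DESeq2 called 6 higher. Their part in the sheath result was not tested.

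**Figure D2:**
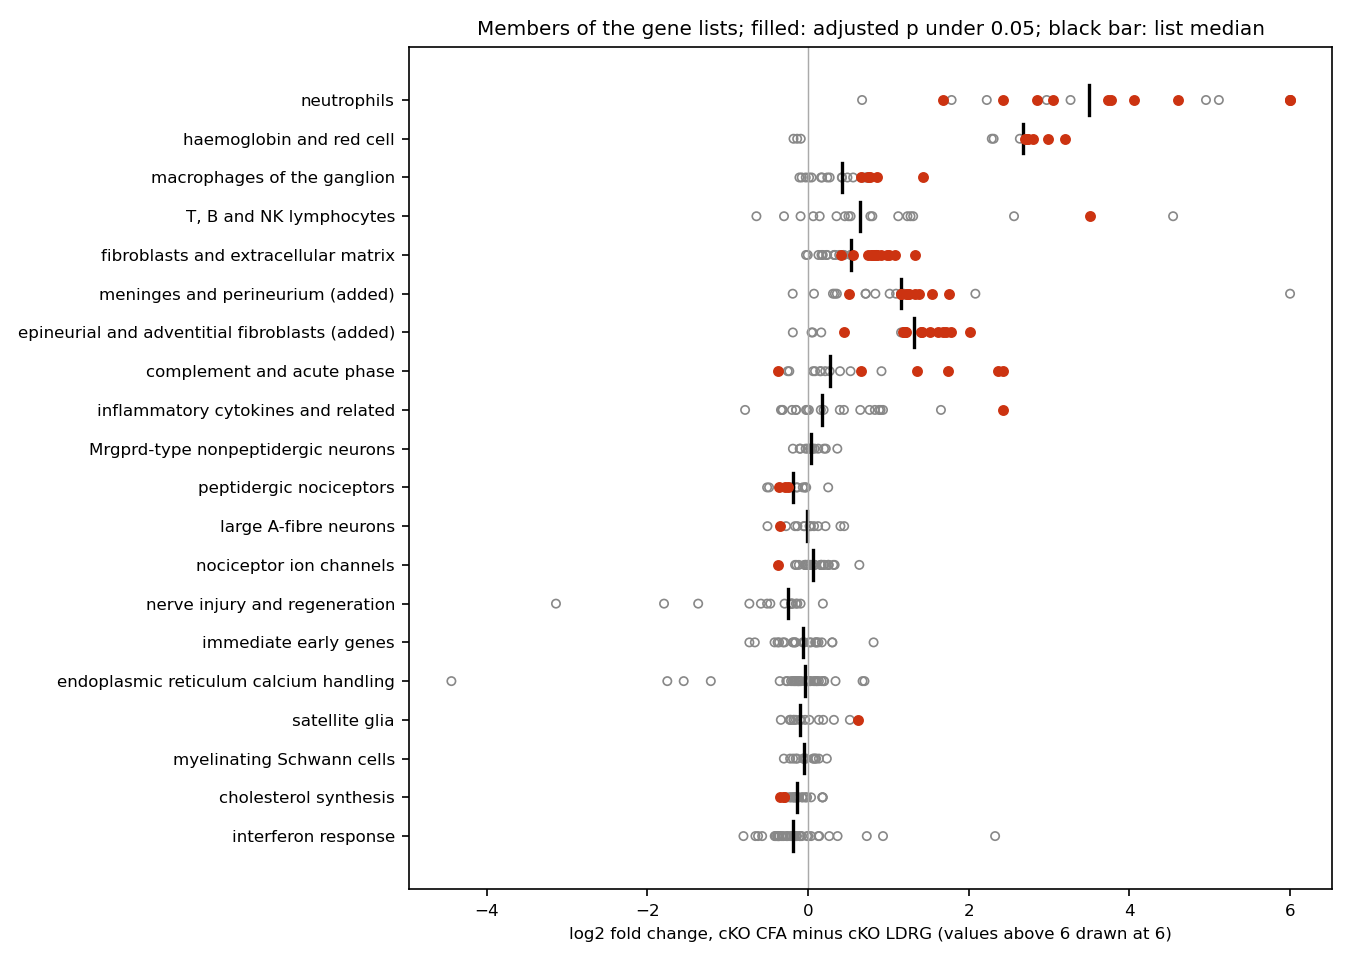
Log2 fold change of each tested member of 20 gene lists between cKO CFA and cKO LDRG, with members past the test filled, list medians as black bars and values above 6 drawn at 6. The medians of the neutrophil, red cell and sheath lists lie well above 0, while those of the neuronal lists lie near or below 0.

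Complement and acute phase genes moved in both directions, with 5 of 17 higher and 1 lower. With 1 library left out 1 to 5 were called higher, and without CFA libraries 1 and 2 there were 2 higher and 0 lower. Lbp, the lipopolysaccharide-binding protein gene, measured 25.3, 16.3, 13.2 and 15.1 CPM with CFA and 6.13, 5.94 and 8.43 CPM in LDRG and rose by 1.36 (SE 0.24), with every CFA library higher. Lbp was called in 3 of 7 fits with 1 library left out, and its adjusted p was 0.116 without CFA libraries 1 and 2. The haptoglobin gene Hp rose by 2.36 (SE 0.35) and the ceruloplasmin gene Cp by 0.65 (SE 0.078). Serpina3n, a protease inhibitor, fell by 0.38 (SE 0.039), from 232, 232 and 239.7 CPM to 179.6, 185, 182 and 176 CPM, and both groups were tight (adjusted p = 0.0672 without CFA libraries 1 and 2). C3, the central complement component, stood at 0.92 (SE 0.28, adjusted p = 0.138). Of 22 inflammatory cytokine, chemokine and NF-kappaB target genes, 1 passed, Lcn2 named above. The list median was 0.18, 6 genes had an unadjusted p under 0.05, and DESeq2 called 5 higher and 0 lower. CFA values lay above all LDRG values for 5 of the list and below them for 1. Il1b stood at 0.77 (SE 0.52), Il6 at -0.01 (SE 0.39), Ccl2 at 0.19 (SE 0.22) and the adhesion molecule gene Icam1 at 0.88 (SE 0.23).

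In sensory neurons edgeR called 3 of 14 peptidergic, 1 of 14 large A-fibre and 1 of 28 ion channel genes. It called 0 of 14 Mrgprd-type, 11 somatostatin-type and 7 C-low-threshold mechanoreceptor genes. The share over all genes was 2.01%. The calls were small falls, and several were lost with fewer libraries. Outside the peptidergic list the medians lay near 0, at -0.012 for large A-fibre genes and 0.066 for ion channels. Large A-fibre genes nevertheless summed to 10390, 10840, 10480 and 10630 CPM in CFA libraries 1 to 4 and 12310, 11180 and 12300 CPM in LDRG libraries 1 to 3. Of these 14 genes 7 had a fold change above 0, and the sum weighs most the genes of high level, such as Nefm below. Of the 28 ion channel genes, 18 had a fold change above 0. Of 14 peptidergic nociceptor genes, 3 fell and 0 rose, with a median of -0.18. Only 1 of the 14 had a fold change above 0, and 8 had an unadjusted p under 0.05. CFA values lay below all LDRG values for 6 and above them for 1, and DESeq2 called 6 lower and 0 higher. Over all genes, CFA values lay below all LDRG values for 10.3% and above them for 10.7%. Tac1, the substance P precursor, measured 286, 258, 262 and 254 CPM with CFA and 318, 320 and 329 CPM in LDRG and fell by 0.28 (SE 0.051, adjusted p = 0.0364 by edgeR, and 0.105 without CFA libraries 1 and 2). Adcyap1, the PACAP precursor, fell by 0.24 (SE 0.047) and Gpx3, a secreted glutathione peroxidase, by 0.37 (SE 0.05). Calca, the CGRP precursor, did not overlap between the groups but did not pass (-0.22, SE 0.057, adjusted p = 0.0906), and the capsaicin receptor gene Trpv1 stood at -0.14 (SE 0.058). With 1 library left out, 0 to 2 peptidergic genes were called, and 0 without CFA libraries 1 and 2. Of 14 Mrgprd-type genes 0 passed by edgeR, with a median of 0.04, with 2 at an unadjusted p under 0.05 and 0 called by DESeq2. Of 11 somatostatin-type itch neuron genes 0 passed by edgeR, 1 had an unadjusted p under 0.05 and DESeq2 called 1 higher. Of 7 genes of C-low-threshold mechanoreceptors 0 passed, 2 had an unadjusted p under 0.05 and DESeq2 called 1 lower. Of 14 large A-fibre genes, 1 fell, the neurofilament gene Nefm, from 5789, 5076 and 5592 CPM to 4209, 4460.3, 4338 and 4160.4 CPM, by 0.35 (SE 0.056), while DESeq2 called 1 higher and 1 lower. Of 28 nociceptor ion channel genes and partners, 1 fell, Tmem100, which encodes an adaptor between TRPA1 and TRPV1. Tmem100 measured 50.7, 53.6, 52.9 and 51.6 CPM with CFA and 68.9, 68.4 and 65.9 CPM in LDRG and fell by 0.38 (SE 0.046), with an adjusted p of 0.0953 without CFA libraries 1 and 2. In the ion channel list 9 genes had an unadjusted p under 0.05, and DESeq2 called 3 higher and 1 lower. Over all genes 20.5% had an unadjusted p under 0.05, and DESeq2 called 1361 of 16199. The sodium channel genes Scn9a and Scn10a stood at 0.33 (SE 0.19) and 0.023 (SE 0.081). By edgeR 0 genes passed of 24 itch genes, 13 opioid and other analgesic receptor genes and 15 neurotrophin and GDNF pathway genes. In each of these lists 4 had an unadjusted p under 0.05, and DESeq2 called 1, 1 and 2 of them.

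Genes that neurons switch on after axon injury were not called higher. Of 16 tested, 0 passed in either direction, 15 had a fold change below 0 and 9 had CFA values below all LDRG values, with a median of -0.25. An unadjusted p under 0.05 was found for 9 of them, and DESeq2 called 7, all lower with CFA. Sprr1a, a cornified envelope protein induced in injured neurons, measured 0.298, 0.594, 0.274 and 0.712 CPM with CFA and 0.732, 2.69 and 9.02 CPM in LDRG (-3.14, SE 0.76, adjusted p = 0.0824). Atf3, a transcription factor of injured neurons, measured 8.81, 9.45, 8.54 and 11.8 CPM against 11.5, 13 and 23.6 CPM (-0.73, SE 0.25, adjusted p = 0.162). In Sprr1a, Atf3 and the neuropeptide gene Gal, which stood at -0.51 (SE 0.14), LDRG library 3 was the highest of the 7. Jun stood at -0.29 (SE 0.069) and the growth cone gene Gap43 at -0.19 (SE 0.051). Of 23 immediate early genes 0 passed, Fos standing at 0.037 (SE 0.15), while 6 had an unadjusted p under 0.05 and DESeq2 called 4 lower. Of 12 ERK feedback genes 0 passed by edgeR, 4 had an unadjusted p under 0.05 and DESeq2 called 2 higher. The share over all genes was 20.5% for an unadjusted p under 0.05, and DESeq2 called 1361 of 16199.

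**Figure D3:**
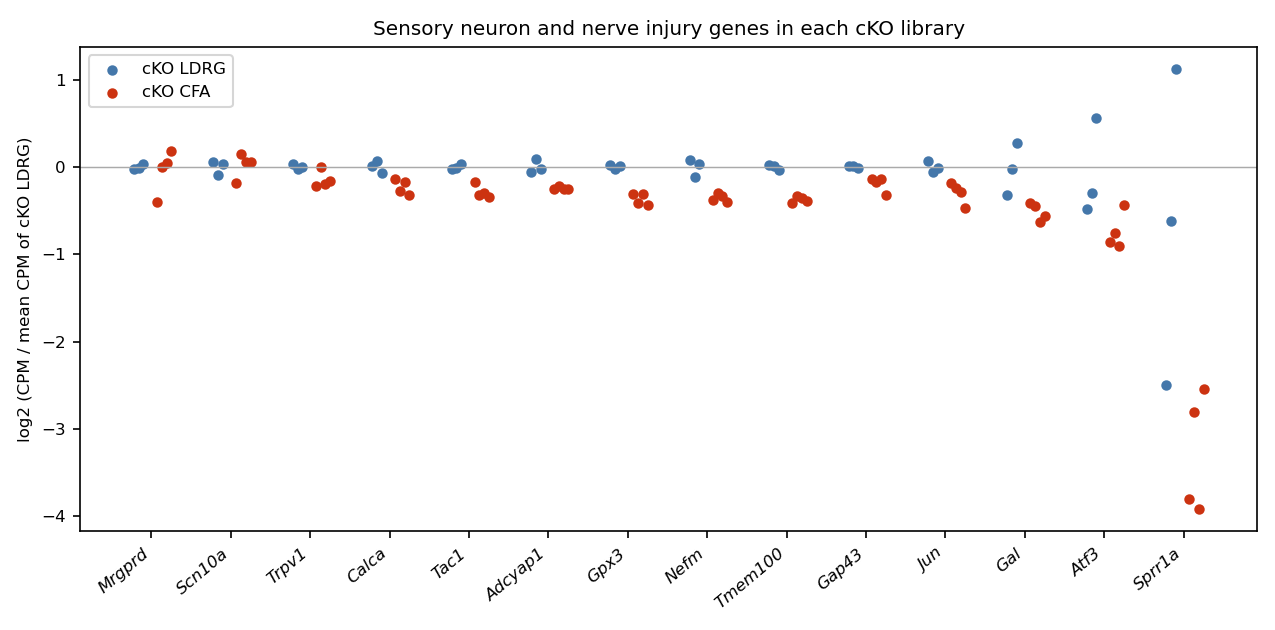
Log2 of CPM over the cKO LDRG mean for 14 sensory neuron and injury genes in each cKO library, by treatment. Genes below the LDRG range in all 4 CFA libraries include Calca, Tac1, Adcyap1, Gpx3, Nefm, Tmem100 and Sprr1a. Sprr1a spreads widely among the LDRG libraries.

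Glia and general cell programmes had between 0 and 3 calls a list, where 2.01% of all genes were called. Fabp7, a fatty acid binding protein of satellite glia, rose from 109, 108 and 90.9 CPM to 154, 164, 150.4 and 164 CPM, by 0.63 (SE 0.075), the 1 call among 16 satellite glia genes. The rest of that list leaned the other way, with a median of -0.094, 6 genes with CFA values below all LDRG values against 3 above, and DESeq2 calling 5 lower and 1 higher. Of 11 genes of non-myelinating and repair Schwann cells, 1 rose, the apolipoprotein gene Apod, by 0.45 (SE 0.078), and of 16 myelin genes 0 passed. Tek, the angiopoietin receptor, was the 1 call of 14 endothelial genes and rose by 0.65 (SE 0.095). Of 23 cholesterol synthesis genes, 3 fell, namely Lss by 0.35 (SE 0.067), Nsdhl by 0.30 (SE 0.044) and Acat2 by 0.30 (SE 0.043), and 0 were called without CFA libraries 1 and 2. The list leaned downward, with a median of -0.14 and 4 of 23 genes above 0. CFA values lay below all LDRG values for 12 and above them for 1. An unadjusted p under 0.05 was found for 12, and DESeq2 called 6 lower and 0 higher. Of 19 glucocorticoid and metallothionein genes, 2 fell, the glucocorticoid-induced leucine zipper gene Tsc22d3 by 0.37 (SE 0.061) and Hif3a by 1.8 (SE 0.29), and the metallothionein gene Mt1 stood at 0.60 (SE 0.23). The median of that list was -0.25, and 4 of its genes were above 0. An unadjusted p under 0.05 was found for 13, and DESeq2 called 7 lower and 3 higher. The clock repressor gene Nr1d1 rose by 0.39 (SE 0.074), the 1 call of 21 clock genes, and the imprinted antisense RNA Kcnq1ot1 by 0.88 (SE 0.14). The series title speaks of calcium regulation, and of 35 genes of calcium handling in the endoplasmic reticulum 0 passed by edgeR, 15 had an unadjusted p under 0.05 and DESeq2 called 3. Their median was -0.031, with the pump gene Atp2a2 at 0.087 (SE 0.061) and the calcium sensor gene Stim1 at -0.097 (SE 0.053). Of 27 unfolded protein response genes 0 passed, the chaperone gene Hspa5 standing just outside the threshold at 0.25 (SE 0.05, adjusted p = 0.0501), while 10 had an unadjusted p under 0.05 and DESeq2 called 4 higher. By edgeR 0 passed of 21 heat shock, 34 interferon response, 22 MHC, 82 ribosomal protein and 81 oxidative phosphorylation genes. In the same order 5, 7, 10, 7 and 7 had an unadjusted p under 0.05, and DESeq2 called 2, 3, 4, 2 and 1. The share over all genes was 20.5% for an unadjusted p under 0.05, and DESeq2 called 1361 of 16199. Of 9 tested genes of central glia, 1 rose, Pdgfra, which the fibroblast list also holds, and the 12 genes of that list summed to 73, 68.5, 65.9 and 75.4 CPM with CFA and 58.2, 66.6 and 59 CPM in LDRG. Among its members Olig2 and Opalin were at 0 in all 7 libraries.

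Among genes averaging 5 CPM or more in a group, the 15 largest falls outside X and Y lay under 2-fold except for the antisense RNA Hopxos, which measured 3.39, 2.24, 1.7 and 1.6 CPM with CFA and 7.26, 7.98 and 9.02 CPM in LDRG and fell by 1.85 (SE 0.25). In flox libraries Hopxos ranged from 1.38 to 11 CPM with CFA and from 1.67 to 11 CPM in LDRG, so that the groups overlapped there. Hnrnpa2b1, an RNA-binding protein, measured 119, 119, 119 and 142 CPM against 190.3, 231 and 195 CPM and fell by 0.72 (SE 0.093), and in flox libraries it ranged from 113 to 193 CPM with CFA and from 117 to 207 CPM in LDRG. The other 13 log2 differences were -0.85 for Spsb3, -0.81 for Serpina3c, -0.77 for the pseudogene Tubb4b-ps2, -0.63 for the semaphorin gene Sema6a, -0.62 for the guanine nucleotide exchange factor gene Net1, -0.59 for Mir22hg, the host of miR-22, -0.53 for the synaptic adhesion gene Lrrc4, -0.53 for Inip, -0.49 for the scaffold gene Slc9a3r1, -0.48 for Tes, -0.46 for Mab21l2, -0.46 for the helix-loop-helix inhibitor Id2 and -0.45 for Slc10a6. Reads of a pseudogene and its parent gene may be shared, so the value of Tubb4b-ps2 is uncertain, as is that of Hopxos beside its partner Hopx. Without CFA libraries 1 and 2, 9 of the 15 largest rises and 1 of the 15 largest falls were still called.

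The same contrast in libraries labelled flox uses none of these libraries, but includes flox CFA libraries 1 and 4, whose Tmem45b level does not follow the label. It called 436 of 16251 genes (2.68%), 291 higher (1.79%) and 145 lower (0.892%), and 3425 (21.1%) had an unadjusted p under 0.05. Of the genes tested in both genotypes, 118 rose in both, which is 52.2% of the 226 rises in cKO and 41.3% of the 286 in flox. A further 34 fell in both, 35.1% of 97 and 23.4% of 145, and 0 were called in opposite directions. In flox, S100a9 rose by 4.77 (SE 0.43), Hba-a1 by 3.44 (SE 0.40) and Dcn by 1.03 (SE 0.17). Tac1 fell by 0.48 (SE 0.092), Adcyap1 by 0.53 (SE 0.048), Tmem100 by 0.77 (SE 0.13), Atf3 by 2.1 (SE 0.31) and Serpina3n by 0.40 (SE 0.072). Scara5 stood at 1.18 (SE 0.30, adjusted p = 0.0813 by edgeR) and Fabp7 at 0.48 (SE 0.16, adjusted p = 0.148 by edgeR). The difference between the genotypes was tested itself and called 0 of 16605 genes (0%) by edgeR and 23 by DESeq2, with 840 (5.06%) at an unadjusted p under 0.05. The interaction of Tmem45b was 0.79 (SE 0.34, adjusted p = 0.942 by edgeR). Sex-linked genes followed the treatment labels in flox too.

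**Figure D4:**
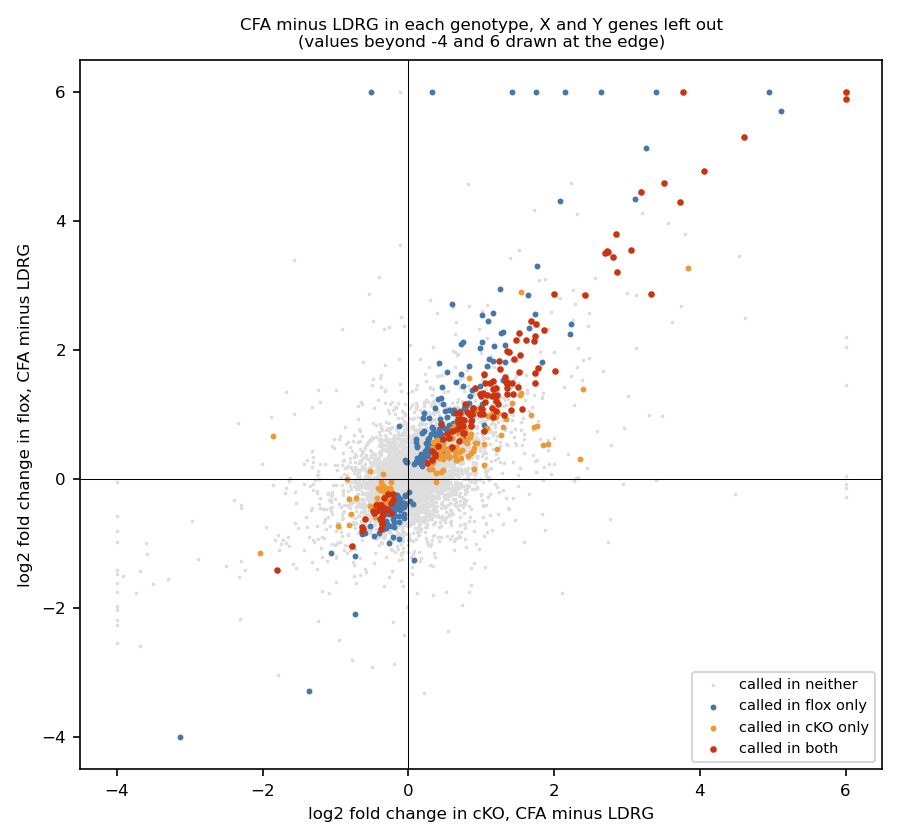
Log2 fold change of CFA against LDRG in cKO (horizontal) and flox (vertical) for each gene outside X and Y, coloured by where it was called, with values beyond -4 and 6 drawn at the edge. Genes called in both genotypes lie at the upper right (118 with X and Y counted) or the lower left (34).

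The direction of the rises depended on which untreated libraries were used. With the 4 untreated cKO libraries of the other table in place of LDRG, 5147 of 16123 genes were called (31.9%), 2526 higher and 2621 lower with CFA. Of 318 calls tested there, 51 were called again in the same direction and 133 had the same sign. S100a9 was then at -3.19, Hba-a1 at -3.18, Dcn at -0.63 and Scara5 at -0.69, each below 0. Outside X and Y, the median of these 4 libraries lay beyond the CFA mean for 131 of 210 genes called higher, between the LDRG and CFA means for 68, and at or below the LDRG mean for 11. Of 88 genes called lower, it lay beyond the CFA mean for 35, between the means for 38 and on the LDRG side for 15. Serpina3n measured 149.6, 179, 193 and 199.8 CPM in these untreated libraries, below all 3 LDRG libraries. Table, library set and treatment cannot be told apart in that comparison. These untreated libraries also mix the code letters C and L.

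**Figure D5:**
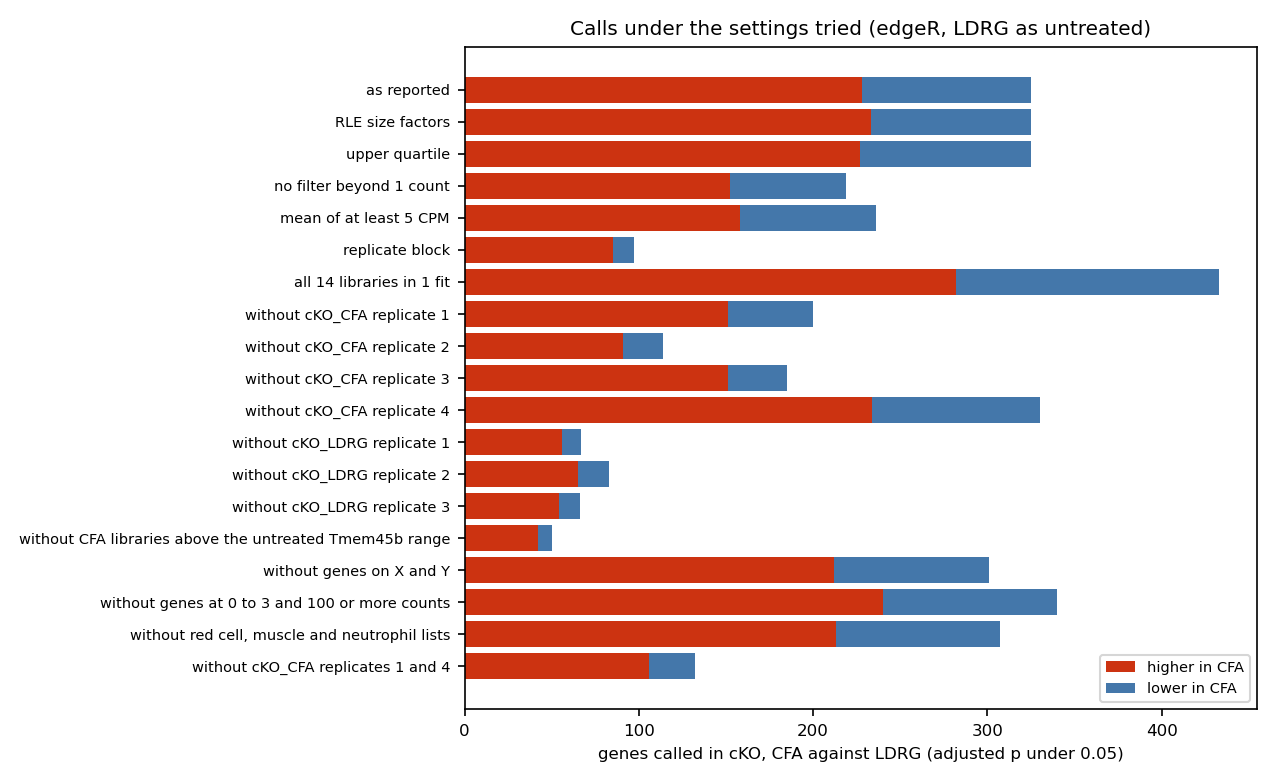
Number of genes called between cKO CFA and cKO LDRG by edgeR under each setting tried, stacked as higher and lower with CFA. The bar as reported reaches 325, and the shortest, without the CFA libraries above the LDRG range of Tmem45b, reaches 50.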

How the data were processed

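Total RNA of mouse dorsal root ganglia was made into poly-A libraries sequenced in paired ends, per the labels' protocols. The authors deposited whole-number read counts per gene, not normalized. The submitters' processing notes name fastp 0.23.2, BWA 2.2.1, SAMtools 1.14, DESeq2 1.40.2 and build mm10. Not given in the sources used here are the tool that counted reads, its annotation and its use of strand, so overlapping and antisense genes may share reads. A count of 4 occurred 4068 times and a count of 3 only 2096 times, which leaves it possible that fragments entered a count repeatedly.

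Counts of the 7 libraries were fitted with edgeR 4.0.16 (R 4.3.3): filterByExpr at a minimum count of 10 and total of 15, TMM factors, the quasi-likelihood F test, and Benjamini-Hochberg adjustment over all tested genes, called under 0.05. The other contrasts were fitted alike. CPM values of all 21 libraries share one TMM scale. On simulated data for this comparison, with 16001 genes, 36.7% of 1.5-fold and 71.7% of 2-fold changes were recovered and 6 of 113 calls were false. Positions are from GENCODE vM21, where 96.1% of symbols were found, and upstream sequences from RefSeq.

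The comparison and its gene lists were chosen with earlier results of these data known, and 2 of the 45 lists were added after values were seen. Named are Tmem45b, Mrgprd and the 15 largest rises and falls among called genes that average 5 CPM or more in either group, have a gene name, lie outside X and Y and do not overlap between groups. One gene of this set is not reported here. Of each list, the first 4 members and the 6 of smallest p could be named. Kdm6a, Ly6g, Csf3r and Slc47a1 were chosen after their values were seen. Deviations of same-numbered libraries correlated at 0.10, -0.024 and 0.012, so replicate numbers were not taken as pairs. Alternatives were RLE and upper quartile factors, DESeq2 1.42.0, other filters, a replicate block, a fit of 14 libraries, other untreated libraries, gene exclusions and leaving out libraries.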

Additional observations from a re-analysis of the deposited data

Results flagged for a closer look

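Among 117 named genes examined in the 4 CFA libraries, 3 had 1 library far from the others, and chance flags about 1 in 20 such groups. Pi16 measured 5.43 CPM in CFA library 2, below 7.91, 8.27 and 8.04 CPM in CFA libraries 1, 3 and 4. Hnrnpa2b1 measured 142 CPM in CFA library 4, above 119 CPM in each of the other CFA libraries. Kdm6a, an X-linked gene that escapes inactivation, measured 63.4 CPM in CFA library 4, above 48.6 to 50.5 CPM in the others.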

How the results depend on the processing

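RLE factors gave 325 calls in cKO, of which 319 were among the 325 reported, and upper quartile factors gave 325, of which 305 were. No filter beyond 1 count gave 219. DESeq2 called 1361 (900 higher, 461 lower). The replicate block left 97 (85 higher, 12 lower), though the numbers do not pair the samples, and put Tmem45b at 0.46. The fit of all 14 libraries called 433 (282 higher, 151 lower). Leaving out 1 library gave 66 to 330 calls (54 to 234 higher, 11 to 96 lower) and Tmem45b at 0.23 to 0.49. Leaving out CFA libraries 1 and 2 gave 50 (42 higher, 8 lower) and Tmem45b at -0.039. Leaving out CFA libraries 1 and 4, chosen after seeing the data, gave 132 (106 higher, 26 lower). Fewer samples enter these fits, and other causes of the differences were not tested. In flox, DESeq2 called 1698 genes, no filter 145, the replicate block 30, and leaving out 1 library 42 to 468. For the difference between genotypes DESeq2 called 23 and leaving out 1 library 0 to 1. Between codes F and M, DESeq2 called 256 and leaving out 1 library 4 to 10. At this depth and number of libraries most simulated 1.5-fold changes were missed, so a gene that was not called is not shown to be unchanged.

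With the untreated cKO libraries of the other table in place of LDRG, 5147 (2526 higher, 2621 lower) were called. Of 117 genes examined, 73 changed sign, and 62 of these were called against LDRG or against the other libraries. The cause was not tested. The log2 differences of the 62 were -3.19 for S100a9, -3.69 for Ngp, -2.37 for Mmp9, -3.01 for Chil3, -3.18 for Hba-a1, -3.17 for Hbb-bs, -3.53 for Hbb-bt, -3.23 for Hba-a2, -2.88 for Lcn2, -1.09 for Pi16, -0.29 for Foxd1, 0.24 for Serpina3c, 0.046 for Sema6a, 0.039 for Mir22hg, 0.18 for Lrrc4, 0.076 for Slc10a6, -2.32 for Retnlg, -2.30 for Ly6g, -1.89 for Mmp8, -2.10 for Cxcr2, -2.29 for Csf3r, -3.46 for S100a8, -4.06 for Camp, -3.42 for Alas2, -3.66 for Slc4a1, -2.14 for Itgam, -0.65 for F13a1, -1.27 for Adgre1, -1.96 for Lyz2, -0.59 for Ccr2, -1.70 for Aif1, -2.87 for Igkc, -1.62 for Mki67, -1.15 for Fn1, -0.31 for Pdgfra, -0.32 for Col6a1, -0.36 for Col1a1, -0.63 for Dcn, -0.69 for Scara5, -0.18 for Ecm2, -0.13 for Egfr, -0.13 for Foxc1, -1.28 for Slc47a1, -2.76 for Hp, -0.093 for Lbp, -0.66 for Cp, 0.013 for Serpina3n, 0.26 for Tac1, 0.29 for Adcyap1, 0.093 for Gpx3, 0.24 for Nefm, 0.21 for Tmem100, -1.41 for Fos, 0.44 for Lss, 0.19 for Nsdhl, 0.042 for Acat2, -0.56 for Nr1d1, -0.60 for Fabp7, -0.82 for Apod, -0.069 for Tek, -1.22 for Icam1 and -0.81 for Mt1.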
